A study of Caenorhabditis elegans with 6 samples.

Results

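The acyl-CoA synthetase genes (acs) and the acyltransferase-like genes (acl) of Caenorhabditis elegans were followed in whole worms with and without knockdown of the yolk protein gene vit-5. Members were all genes whose deposited name was acs or acl, a hyphen and a number. This gave 34 of 45132 genes, 21 acs and 13 acl, and no measured value was used to choose them. RNA came from whole wild-type N2 worms, 3 libraries from animals given the empty L4440 vector (control RNAi) and 3 from animals given vit-5 RNAi. Both groups had the wild-type genotype, received RNAi as larvae, were moved as young adults to the food bacterium OP50 and were collected as 5-day-old adults. RNAi lowers a gene's RNA without altering the gene. The labels do not say whether replicates were separate cultures, so the spread that p-values are set against is that of these libraries and may be technical in origin.

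Acyl-CoA synthetases join a fatty acid to coenzyme A, the step that makes it usable for oxidation, for elongation and desaturation, and for building lipids. Acyltransferases then pass the acyl group from coenzyme A to glycerol phosphate and its derivatives, which leads to phospholipids and to stored triglyceride, or exchange acyl chains on phospholipids already made. In the worm the intestine is both the main fat store and the site where yolk lipoproteins are made, and the hypodermis and germline also use these enzymes.

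The target of the knockdown was low in the libraries labelled vit-5 RNAi, at 116, 51.6 and 22.8 FPKM (fragments per kilobase of transcript per unit of sequenced fragments, a level scaled for gene length and library size) against 2335, 1396 and 1573 under control RNAi. Libraries held roughly 17000000 to 20800000 fragments, a rough estimate from the spacing of the lowest values. Controls had 12041 to 12438 genes at or above 1 FPKM and vit-5 RNAi libraries 12931 to 13503. Ribosomal RNA genes took the largest part of the FPKM sum in control replicate 2 (1.95%) and vit-5 RNAi replicate 3 (2.68%), and 0.209% to 0.659% in the other 4 libraries. The larval cuticle collagen rol-6 stood at 3.41 and 3.15 FPKM in replicate 1 of the control and vit-5 RNAi groups and between 27.8 and 202 elsewhere. Of 12908 genes tested with limma on log2(FPKM + 1), 0 passed an adjusted p of 0.05, and 3378 higher and 117 lower had an unadjusted p under 0.05. The median log2 fold change over all tested genes was 0.34, a shared upward shift that median-of-ratios scaling took to 0.03, so differences are also given on that scale.

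Of the 34 members, 28 had at least 1 FPKM in at least 3 libraries and were tested, 16 acs and 12 acl. All 6 libraries reached that level for 27 of them. The exception was acs-3, which reached it in 2 control and 3 vit-5 RNAi libraries. Untested were acs-6, acs-10, acs-15, acs-18 and acl-13, with values from 0.0001 (the value most zeros were written as) to 0.61 FPKM, and acs-9, at 0.51, 0.37 and 0.63 FPKM under control RNAi and 0.84, 0.83 and 1.15 under knockdown. The RefSeq table calls acs-9 pkal-1.

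Among the synthetases, 4 genes made up most of the family's level. Whole worms mix tissues, and in such samples fewer cells of a type and less RNA per cell cannot be told apart. acs-13, a member of the fatty acid CoA synthetase family (WBcel235, chromosome I, 511044 to 519646), had by far the highest level of the family, with 296, 251 and 264 FPKM under control RNAi and 265, 271 and 198 under knockdown. Its groups overlapped, with vit-5 RNAi replicate 3 below every other library. Next came acs-19, annotated as an acetyl-CoA synthetase (III, 3864489 to 3867098), which makes acetyl-CoA from acetate. Its control values of 120.5, 120.5 and 119.8 FPKM were almost equal, and 145, 122 and 126 FPKM followed vit-5 RNAi. acs-4 (III, 7167838 to 7170990), a long-chain synthetase known in worms for its part in the choice between sperm and oocyte fate, held 123, 84.3 and 96.9 FPKM under control RNAi and 148, 121 and 82.4 under knockdown. The control means of acs-19, 120.3 ± 0.38 FPKM, and acs-4, 101 ± 19.7 (SD, n = 3), differed by less than the SD of acs-4.

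The fourth gene in that order was acs-2 (V, 15567394 to 15569897), a mitochondrial synthetase induced by fasting through the nuclear receptor NHR-49. It held 30.7, 44.7 and 83.5 FPKM under control RNAi and 16.5, 31.2 and 106 under knockdown. Both groups therefore spanned a wide range and overlapped, and of the acs members tested acs-2 had the largest coefficient of variation in each group, 51.6% under control RNAi and 93.9% under knockdown. In each group the library lowest in acs-2 was also lowest in molting genes and the library highest in acs-2 was highest in them. The mean log2 level of the 12 molting genes was 2.60, 3.37 and 3.61 under control RNAi and 2.96, 3.15 and 4.07 under knockdown. Their part in the acs-2 values was not tested beyond the fit with a molting covariate. The covariate there was a mean over molting genes that passed the filter, which leaves out bli-1 and bli-2. In that fit acs-2 passed as lower, with a log2 fold change of -0.70 and a limma adjusted p of 0.0378, where 1.43% of all genes were called lower. Over the alternatives its log2 fold change ran from -1.13 to 0.24 and its adjusted p from 0.0378 to 0.974.

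**Figure D1:**
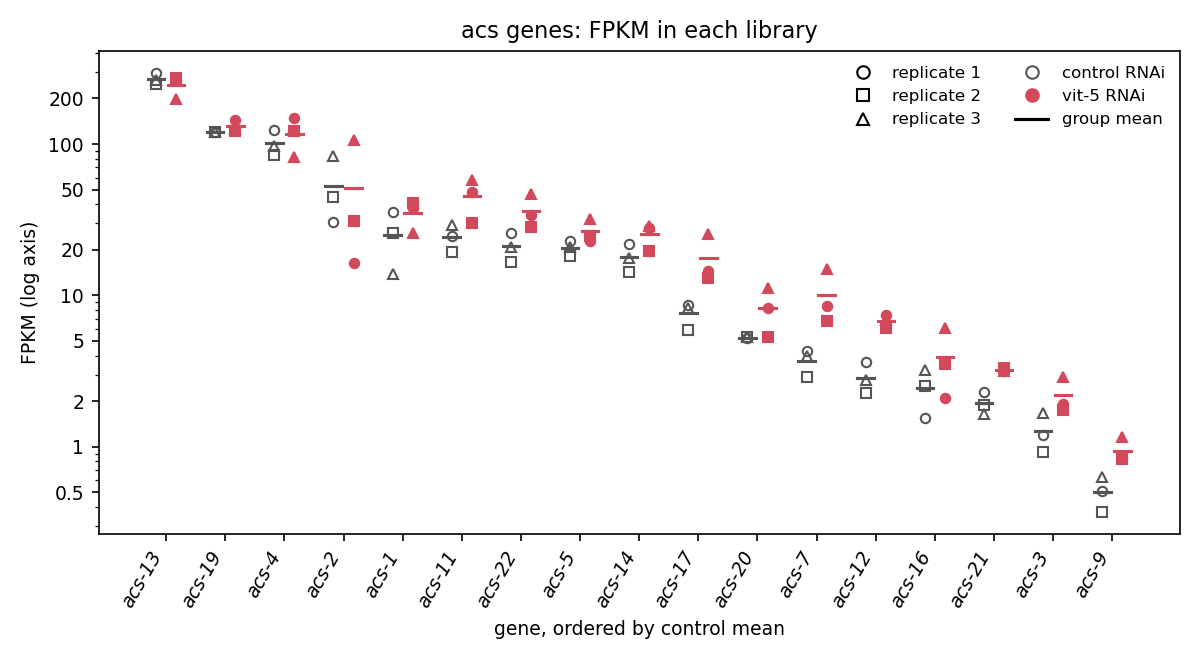
FPKM of acs genes (log axis) in each library, ordered by control mean. Open grey symbols are control RNAi and filled red symbols vit-5 RNAi, symbol shape gives the replicate number and bars are group means of 3 libraries. Levels fall from 270.4 FPKM for the control mean of acs-13 to 0.502 for acs-9. All red symbols lie above all grey ones for 8 of the 16 tested genes, among them acs-7, acs-12 and acs-17, beside 30.8% of all tested genes. The 4 acs genes with lower levels are not drawn.

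No acs member passed the adjusted threshold, as no gene in the table did (0% called). An unadjusted limma p under 0.05 was found for 6 of 16 acs members, all with higher values under knockdown and none lower, where 26.2% of all tested genes were higher and 0.906% lower. Without control replicate 2 the acs number was 3, and the share of all genes also fell, to 11.2%. The groups did not overlap for 8 of 16 acs members, all with vit-5 RNAi above control, against 30.8% of all tested genes above and 3.15% below. The median log2 fold change of the 16 was 0.50, beside 0.34 for all genes, and it was above 0 for 14 of them, beside 79.5% of all genes.

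The smallest limma p-values of the family were those of 3 synthetases of low or moderate level. acs-12 (V, 20904168 to 20907433), a family member, held 3.60, 2.25 and 2.74 FPKM under control RNAi and 7.38, 6.06 and 6.90 under knockdown. Every vit-5 RNAi library lay well above every control, and the ratio of means was 2.37. The log2 fold change was 1.02 (SE 0.23, 95% interval 0.49 to 1.55), with a limma p of 0.0021 and an adjusted p of 0.122.

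acs-7 (II, 9292017 to 9294033), a peroxisomal synthetase that takes part in assembling modified ascaroside pheromones, held 4.30, 2.89 and 3.96 FPKM under control RNAi. After vit-5 RNAi it held 8.51, 6.75 and 15.01 FPKM, all above the controls, with replicate 3 highest. Its log2 fold change of 1.18 (SE 0.31, limma p 0.00509, adjusted p 0.122) was the largest of the family, and the ratio of means was 2.72.

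acs-17 (X, 5937558 to 5944499), another family member, held 8.64, 5.94 and 8.24 FPKM under control RNAi and 14.4, 13.1 and 25.6 under knockdown. Here too the groups were apart and vit-5 RNAi replicate 3 was highest, and the log2 fold change was 1.07 (SE 0.29, limma p 0.00622, adjusted p 0.122). These 3 genes kept an unadjusted limma p under 0.05 in all 6 fits that left out a library and after all 3 rescalings. Single fits without a library had 11.2% to 29.9% of all genes higher at that threshold, and single rescalings 5.96% to 12.7%. The share of all genes higher in every one of these fits was not counted. Scaled by median of ratios, the log2 fold changes stood at 0.73 for acs-12, 0.87 for acs-7 and 0.74 for acs-17, with unadjusted limma p-values of 0.00415, 0.0158 and 0.0235.

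The other 3 acs members with an unadjusted p under 0.05 depended more on scaling. acs-11 (II, 4742137 to 4745280) held 24.5, 19.3 and 29.0 FPKM under control RNAi and 48.5, 30.2 and 57.8 under knockdown, so the groups were just apart. For acs-22 (X, 8931179 to 8939263), a homologue of the mammalian fatty acid transport proteins that works with DGAT-2 at the junction of endoplasmic reticulum and lipid droplets, controls held 25.8, 16.7 and 21.0 FPKM and vit-5 RNAi libraries 33.8, 28.5 and 46.8. Controls held 2.31, 1.87 and 1.64 FPKM of acs-21 (V, 3089068 to 3091352) and the vit-5 RNAi libraries 3.15, 3.31 and 3.15. Their log2 fold changes were 0.85 for acs-11, 0.74 for acs-22 and 0.52 for acs-21, with limma adjusted p-values of 0.129, 0.132 and 0.158. After median-of-ratios scaling these were 0.50, 0.39 and 0.26, and none had an unadjusted limma p under 0.05 (0.0752, 0.0895 and 0.176).

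Among the remaining acs genes with a known role, the groups of acs-20 and acs-1 overlapped and those of acs-3 did not. acs-20 (IV, 12392121 to 12398706), the other fatty acid transport protein homologue, needed for the barrier of the cuticle, held 5.20, 5.28 and 5.29 FPKM under control RNAi. After vit-5 RNAi it held 8.27, 5.27 and 11.2, with replicate 2 inside the control range. acs-1 (V, 6524989 to 6532089), which activates the branched-chain fatty acids that worms need for growth, held 35.7, 25.6 and 13.8 FPKM under control RNAi and 37.9, 40.9 and 25.7 under knockdown. Its lowest library in each group was replicate 3, the library highest in molting genes. acs-3 (V, 1969528 to 1974514), which acts with the nuclear receptor NHR-25 in epidermal cells, held 1.19, 0.93 and 1.68 FPKM under control RNAi and 1.91, 1.76 and 2.89 under knockdown. The ratio of means of acs-3 was 1.72. Its groups were apart by less than the spread within either, and its limma adjusted p was 0.219. The 3 tested genes not yet described, acs-5, acs-14 and acs-16 (1.55 to 23.0 FPKM under control and 2.09 to 32.1 under knockdown), had log2 fold changes of 0.35, 0.48 and 0.46, and their groups overlapped.

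For acs-13, the size of the difference depended on the scaling. It had a log2 fold change of -0.15 as deposited (limma p 0.378) and of -0.52 after median-of-ratios scaling (unadjusted limma p 0.0154), and -0.44 after upper-quartile scaling. Quantile scaling left it at -0.14. Its share of the family's summed FPKM, which no scaling factor alters, was 40.6%, 40.7% and 38.1% under control RNAi and 33.4%, 37.1% and 25.5% under knockdown. Over the same libraries acs-7 went from 0.542% ± 0.065 to 1.31% ± 0.544 of the family sum, acs-12 from 0.418% ± 0.0675 to 0.883% ± 0.0518 and acs-17 from 1.11% ± 0.128 to 2.30% ± 0.864 (SD, n = 3). The summed FPKM of the family was 729, 616 and 695 under control RNAi and 791, 731 and 777 under knockdown. This small difference, a ratio of 1.13, turned to 0.88 after median-of-ratios and 0.93 after upper-quartile scaling, so the direction of the family total cannot be given.

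**Figure D2:**
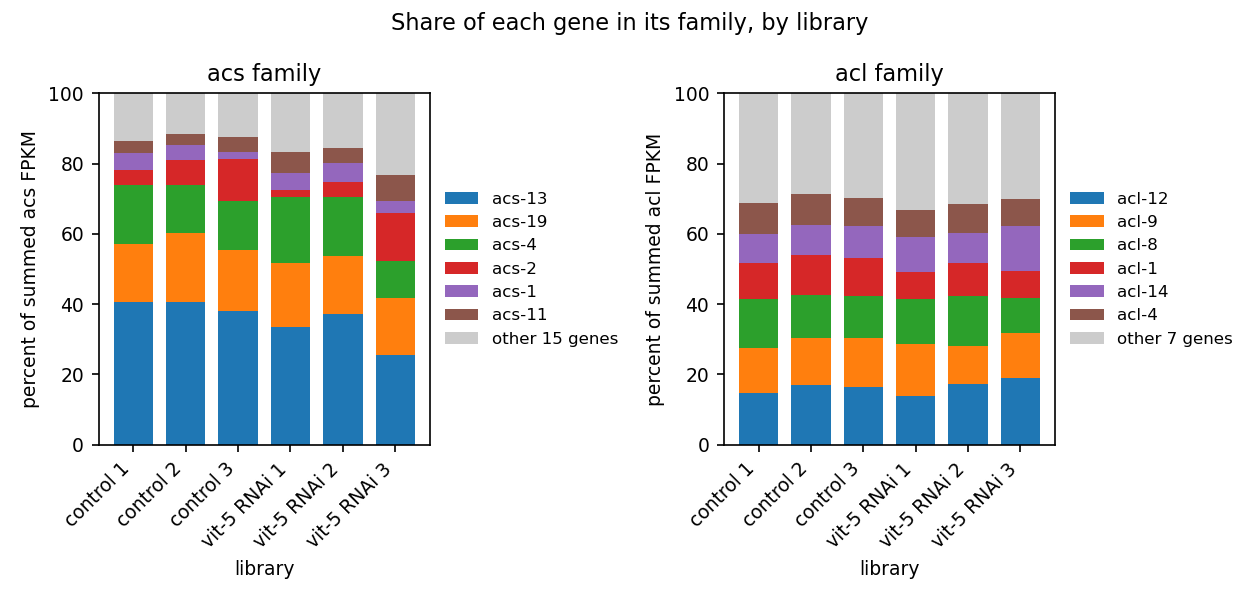
Percent of the summed FPKM of each family taken by its 6 most abundant genes and by the rest, in each of the 6 libraries (bars reach 100%). acs-13 takes 38.1% to 40.7% of the acs sum under control RNAi and 25.5% to 37.1% under knockdown, while the acl sum is spread more evenly.

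The acyltransferases had a flatter profile than the synthetases. No acl gene took the place that acs-13 has, and control means of the 12 tested ran from 6.79 FPKM (acl-5) to 56.2 (acl-12). acl-12 (X, 7439392 to 7442577), described in the files as a putative lysophosphatidic acid acyltransferase, held 61.1, 52.8 and 54.8 FPKM under control RNAi and 65.1, 70.9 and 79.98 under knockdown. Its groups did not overlap, but its log2 fold change of 0.35 was close to the shift of all genes and became -0.01 after median-of-ratios scaling.

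**Figure D3:**
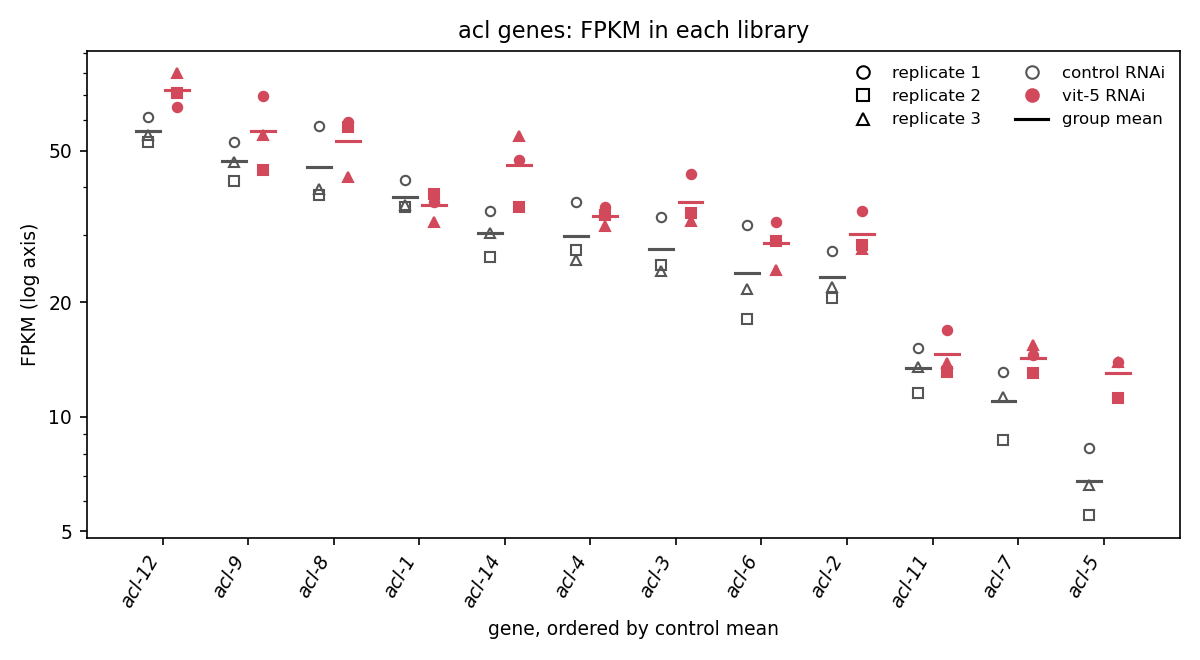
FPKM of the 12 tested acl genes (log axis) in each library, ordered by control mean, with symbols as in the plot of acs levels. Control means run from 56.2 FPKM for acl-12 to 6.79 for acl-5. All red symbols lie above all grey ones for 4 of the 12 genes, acl-5 among them, beside 30.8% of all tested genes.

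No acl member passed the adjusted threshold either. An unadjusted limma p under 0.05 was found for 2 of 12, both higher, beside 26.2% of all tested genes, and for 4 of 12 all vit-5 RNAi values were above all controls, beside 30.8%. Those shares are near or below the background. The 2 became 1 when control replicate 2 or 3, or replicate 1 or 3 of the knockdown, was left out, where 11.2%, 15%, 17.5% and 27.5% of all genes were higher. Their median log2 fold change was 0.31, below the 0.34 of all genes, and -0.04 after median-of-ratios scaling.

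The acyltransferases that start glycerolipid synthesis are glycerol phosphate acyltransferases. Log2 fold changes were 0.86 for acl-5, 0.18 for acl-4 and 0.28 for acl-6, and whether these genes differ from each other was not tested. acl-5 (X, 10324163 to 10327456), of the type found in the endoplasmic reticulum, held 8.26, 5.50 and 6.61 FPKM under control RNAi and 13.9, 11.2 and 13.9 under knockdown. Its groups were well apart and the ratio of means was 1.92. The log2 fold change was 0.86 (SE 0.23, 95% interval 0.33 to 1.38, limma p 0.00557, adjusted p 0.122), and 0.53 after median-of-ratios scaling (unadjusted limma p 0.0161). Like the 3 synthetases above, it kept an unadjusted p under 0.05 in all 6 fits that left out a library and after all 3 rescalings. How many of all genes did so was not counted. Its close relative acl-4 (X, 2066554 to 2070444) held 36.5, 27.3 and 25.8 FPKM under control RNAi and 35.6, 33.8 and 31.8 under knockdown, and control replicate 1 lay above all the others. The mitochondrial enzyme of this type, acl-6 (V, 5433386 to 5437095), known for its part in mitochondrial fusion, held 31.8, 18.0 and 21.6 FPKM under control RNAi and 32.5, 28.9 and 24.3 under knockdown. Its groups overlapped.

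The next step, the acylation of lysophosphatidic acid, is assigned by the files' descriptions to acl-1, acl-2 and acl-12. acl-1 (X, 15849885 to 15852001) held 41.8, 35.6 and 35.9 FPKM under control RNAi and 36.7, 38.5 and 32.5 under knockdown, overlapping groups with a log2 fold change of -0.07 (limma p 0.685). Relative to other genes it was lower, with -0.42 after median-of-ratios scaling (unadjusted limma p 0.0200), -0.35 after upper-quartile and -0.36 after quantile scaling. Its share of the summed acl FPKM was 10.8% ± 0.669 under control RNAi and 8.30% ± 0.963 under knockdown (SD, n = 3), without overlap. acl-2 (V, 10028150 to 10031092) held 27.3, 20.4 and 21.9 FPKM under control RNAi and 34.7, 28.2 and 27.5 under knockdown, so the groups were barely apart, and after median-of-ratios scaling its log2 fold change was 0.02.

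Other acyltransferases remodel finished phospholipids or make ether lipids, and the 4 described here had overlapping groups. acl-3 (IV, 11650715 to 11652023), the worm tafazzin, which remodels the mitochondrial lipid cardiolipin, held 33.5, 25.1 and 24.2 FPKM under control RNAi and 43.3, 34.2 and 32.6 under knockdown, a log2 fold change of 0.41 (limma adjusted p 0.235) that was 0.05 after median-of-ratios scaling. acl-8 (V, 6450870 to 6453119) and acl-9 (V, 6453226 to 6454966), which help set the fatty acid make-up of phosphatidylinositol, lie 106 bases apart on the same strand. acl-8 held 58.1, 38.3 and 39.6 FPKM under control RNAi and 59.3, 57.5 and 42.6 under knockdown. Values of acl-9 were 52.7, 41.6 and 46.5 FPKM under control RNAi and 69.6, 44.6 and 55.1 under knockdown. The neighbours thus had like levels, and in both the groups overlapped. acl-7 (II, 12811888 to 12816462), which starts ether lipid synthesis in peroxisomes, held 13.1, 8.71 and 11.2 FPKM under control RNAi and 14.5, 13.02 and 15.4 under knockdown. Its log2 fold change was 0.36 (limma adjusted p 0.311) as deposited and 0.03 with median-of-ratios scaling.

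The other acl member with an unadjusted limma p under 0.05, acl-14 (V, 9327214 to 9333062), held 34.7, 26.2 and 30.3 FPKM under control RNAi and 47.1, 35.5 and 54.6 under knockdown, with 0.56 ± 0.21 (SE) as its log2 fold change and a limma adjusted p of 0.152. With median-of-ratios scaling it was 0.21 (unadjusted limma p 0.263), the unadjusted p was 0.135 and 0.165 under the other rescalings, and it stayed under 0.05 in 2 of 6 fits that left out a library. The whole of the protein-coding gene K07B1.4, on the opposite strand, lies within it. K07B1.4 is listed at 15.4 to 26.8 FPKM in the 6 libraries. No source used here says whether counting used strand, so reads from the pair cannot be told apart with certainty and the values of acl-14 are uncertain. The remaining tested gene, acl-11 on chromosome I, held 11.5 to 15.1 FPKM under control RNAi and 13.1 to 16.9 under knockdown. In all, 14 of the 34 members overlap another protein-coding gene, but outside acl-14 by at most 334 bases, and acs-11, acs-12 and acl-5 overlap none.

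**Figure D4:**
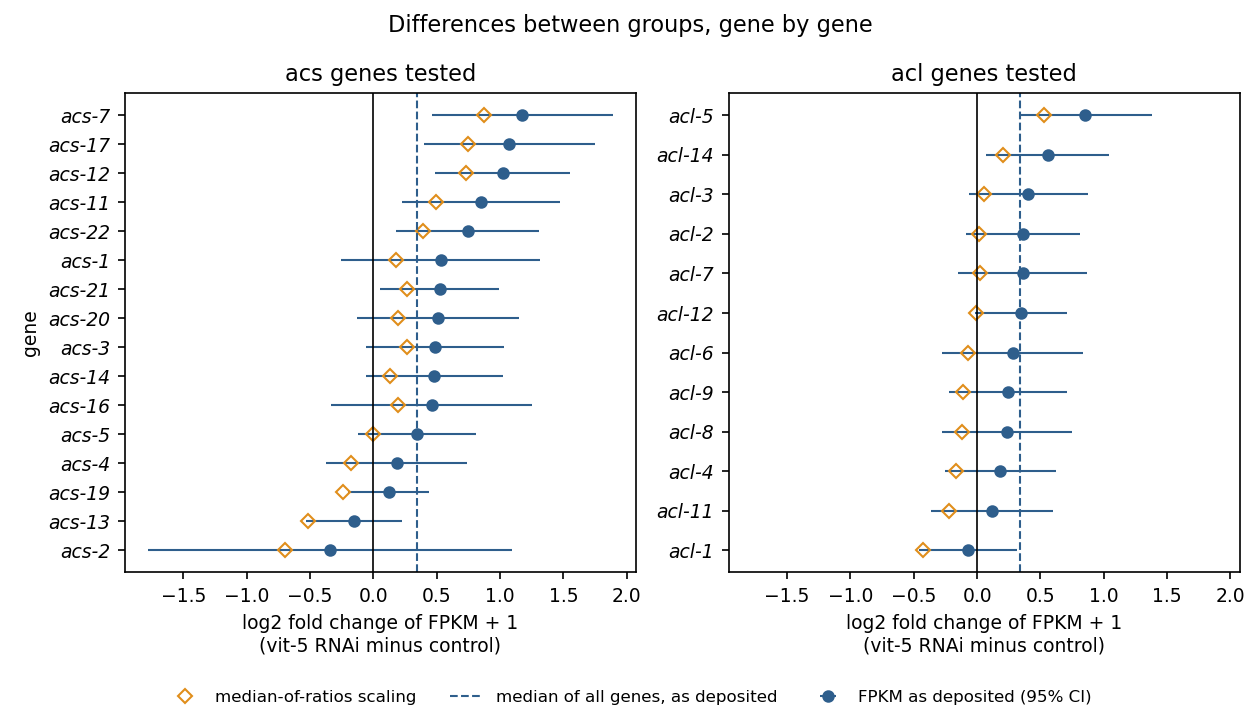
Log2 fold change of FPKM + 1, vit-5 RNAi minus control, for the 28 tested members. Filled circles with bars are values as deposited with 95% intervals, open diamonds the same after median-of-ratios scaling, and the dashed line is the median of all genes as deposited, 0.34. On both scales 11 of 16 acs and 5 of 12 acl genes stay right of 0, among them acs-7, acs-12, acs-17 and acl-5. acs-13 and acl-1 move to -0.52 and -0.42.

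After median-of-ratios scaling, 4 of the 28 members had an unadjusted limma p under 0.05 as higher (acs-7, acs-12, acs-17 and acl-5), beside 9.23% of all tested genes. As lower there were 2 (acs-13 and acl-1), beside 12.1% of all tested genes. Neither share is far from its background, and 0% of all genes passed the adjusted threshold on that scale. Whether the families differ from each other was not tested.

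Intestinal markers were present in every library, summing to 4315 to 4759 FPKM over 8 genes under control RNAi and 4476 to 4972 under knockdown, and sperm markers were all under 1 FPKM. Of 6 neuronal markers, 4 lay wholly above the controls under knockdown, beside 30.8% of all tested genes. So did 12 of the 28 tested members, acs-7, acs-12, acs-17 and acl-5 among them. The neuronal markers summed to 625 to 664 FPKM under control RNAi and 596 to 676 under knockdown. Most of that sum was snb-1, whose groups overlapped, at 585 to 626 and 530 to 609 FPKM. The mean log2 level of the 6 was 3.60 to 3.90 and 4.34 to 4.83. Of 8 intestinal markers 3 lay wholly above the controls, beside 30.8% of all tested genes, with mean log2 levels of 6.74 to 6.88 and 7.22 to 7.27. Body muscle markers had mean log2 levels of 4.99, 5.30 and 5.70 under control RNAi and 5.33, 5.49 and 6.26 under knockdown, and 8 hypodermis and seam markers 5.19 to 5.47 and 5.20 to 5.48. Those 8 did not go one way. Their log2 fold changes ran from -1.05 (col-140, overlapping groups) to 0.71 (elt-3, wholly above the controls), with 6 above 0. Germline markers were lowest in vit-5 RNAi replicate 3, where acs-4 and acs-13 were lowest too, at 2230 FPKM summed over 10 genes against 2973 to 4074 in the other libraries. The part of these tissues in the members' values was not tested.

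**Figure D5:**
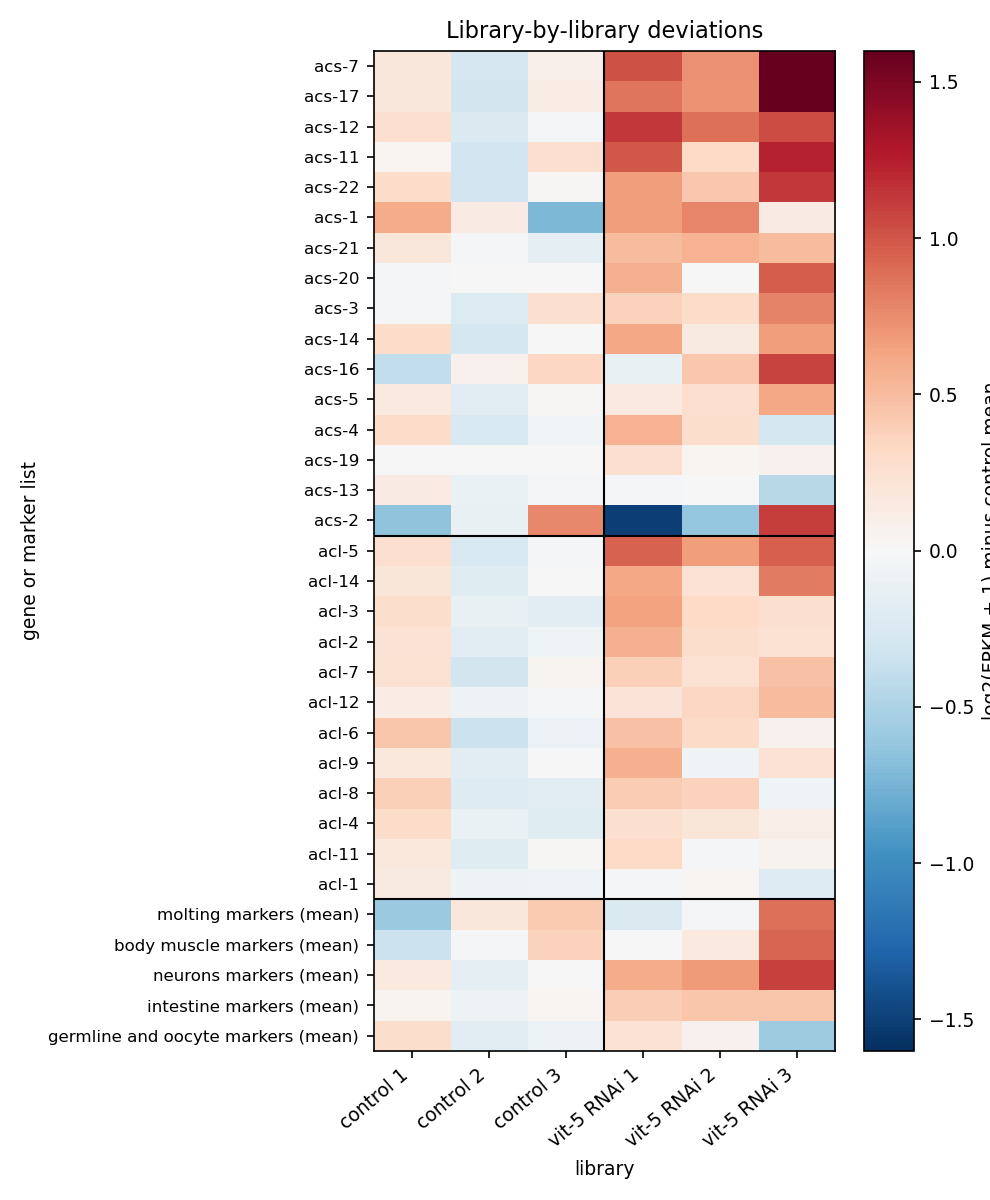
Difference of each library from the control mean, in log2(FPKM + 1), for the 28 tested members and for the mean of 5 marker lists; columns are libraries, red is above and blue below the control mean. acs-2 is darkest blue in vit-5 RNAi replicate 1 (-1.51), where the molting row is at -0.23 and the muscle row near 0. Only the order within each group is thus alike. acs-7, acs-12, acs-17 and acl-5 lie above the control mean in all 3 vit-5 RNAi libraries, as do most of the other members.

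Of 20 enzymes of glycerolipid synthesis and turnover, all tested, 0 passed the adjusted threshold and 2 had an unadjusted limma p under 0.05, both higher, beside 26.2% of all genes. After median-of-ratios scaling 0 were higher and 4 lower (mboa-6, crls-1, pisy-1 and pssy-2), beside 9.23% and 12.1% of all genes. The 2 that were higher as deposited were lpin-1 and cdgs-1. lpin-1, the worm lipin that makes diacylglycerol, stood at 29.9 ± 2.19 FPKM under control RNAi and 45.2 ± 8.55 under knockdown. cdgs-1, which makes CDP-diacylglycerol, stood at 34.0 ± 6.15 and 48.3 ± 6.84 (SD, n = 3 each). dgat-2, the last enzyme of triglyceride synthesis, stood at 23.1 ± 6.08 and 23.1 ± 7.95 FPKM. The median log2 fold change of the 20 was 0.24, less than that of all genes.

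Of 12 genes for fatty acid supply and acyl-CoA handling, 10 were tested, and 2 higher and 1 lower had an unadjusted limma p under 0.05, beside 26.2% and 0.906% of all genes. Median-of-ratios scaling left 1 higher (maa-1) and 2 lower (acbp-5 and acbp-6), beside 9.23% and 12.1% of all genes. cpt-2 then had an unadjusted limma p of 0.242. maa-1, a membrane-bound acyl-CoA binding protein, stood at 7.46 ± 2.33 and 13.9 ± 0.934 FPKM, cpt-2, a carnitine palmitoyltransferase, at 25.2 ± 6.75 and 36.9 ± 3.87, and acbp-6 at 14.1 ± 1.31 and 9.17 ± 2.31 (SD, n = 3 each). Among 7 regulators, nhr-49, which drives acs-2 in fasting, held 34.6, 24.6 and 25.1 FPKM under control RNAi and 48.3, 42.0 and 46.7 under knockdown, a log2 fold change of 0.70 (limma adjusted p 0.122). Its groups were apart, unlike those of acs-2. The same held for 6 of the 7 regulators, nhr-49 included, beside 30.8% of all tested genes. The coactivator mdt-15 was the other of the 7 with an unadjusted limma p under 0.05, at 17.3 ± 4.61 and 27.2 ± 1.94 FPKM (SD, n = 3). These 2 of 7 stood beside 26.2% of all genes higher. After median-of-ratios scaling 1 of the 7 was higher, nhr-49 (0.34, unadjusted limma p 0.0491), beside 9.23% of all genes. mdt-15 was then at 0.31 (unadjusted limma p 0.0985).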

How the data were processed

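Whole-worm RNA was sequenced in 6 libraries, 3 per group, with groups and replicate numbers taken from the sample titles. The authors deposited 1 table per library with FPKM per gene. Per the submitters' processing notes, the tools named were Bowtie2 2.2.3, TopHat2 2.0.12, HTSeq 0.6.1 and DESeq 1.18.0, and the build was WBcel235. Settings and use of strand: not given in the sources used here. FPKM are relative, so a shared shift between libraries cannot be told from scaling. Whole fragment counts were not recovered from the low values, so no count test was run.

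Genes that reached 1 FPKM in 3 or more libraries were tested with limma 3.58.1 in R 4.3.3 on log2(FPKM + 1), with group as the only term, a trended variance prior, two-sided p-values and Benjamini-Hochberg adjustment over all 12908 genes. Fold changes on this scale understate the change of low genes. The script was tested on simulated data. Alternatives were another pseudocount, other filters, 3 rescalings, vitellogenin and ribosomal RNA genes taken out of the sum, a replicate block, a molting covariate and libraries left out. Members, lists and the naming rule were chosen with earlier results of these data known. Values in every library are given for the 5 members of each family with the highest control mean, those with an unadjusted p under 0.05 and those with a known role. acl-10 is not analysed here. Coordinates come from the RefSeq gene table and overlaps from the Ensembl annotation, both of WBcel235.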

Additional observations from a re-analysis of the deposited data

How the results depend on the processing

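Another pseudocount, a mean-based filter and removal of vitellogenin and ribosomal RNA genes kept the direction and the side of the adjusted threshold for all 28 tested members. With no filter, 193 genes in place of 117 were lower at unadjusted p.

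Same-numbered libraries deviated together with r = 0.753, 0.034 and 0.681, so the numbers do not pair the samples by the limit of 0.1 for every pair. With the replicate block, 3679 genes higher and 127 lower passed the adjusted threshold (5406 and 396 at unadjusted p), with 6 acs (11 unadjusted), 2 acl (5 unadjusted) and 7 partners higher and 1 lower (15 higher unadjusted). Replicate 2 did not correlate best with its own number in either group.

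With molting gene level as a covariate, measured in these same libraries, 3898 genes higher and 184 lower passed (5366 and 480 unadjusted). Members passing were 6 acs higher and 1 lower, 3 acl higher (7 unadjusted), and 7 partners (11 unadjusted); 31.6% of all genes passed there.

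Median-of-ratios scaling gave 1192 genes higher and 1558 lower at unadjusted p, upper-quartile 1634 and 1119, and quantile 769 and 729. In that order, acs higher were 3, 4 and 3 and lower 1, 1 and 0, acl higher 1, 1 and 1 and lower 1, 1 and 1, and partners higher 2, 2 and 1 and lower 6, 4 and 2. The acs median log2 fold change became 0.19, 0.26 and 0.10, and the acl median -0.039, 0.038 and 0.0077. The summed FPKM ratio became 0.88 and 0.93 for acs and 0.96 and 1.01 for acl under the first pair. Signs turned under median-of-ratios for acs-4 (-0.17), acs-5 (-0.0018), acs-19 (-0.24), acl-4 (-0.17), acl-6 (-0.069), acl-8 (-0.12), acl-9 (-0.11), acl-11 (-0.22) and acl-12 (-0.0097). Under upper-quartile they turned for acs-4 (-0.096), acs-19 (-0.16), acl-4 (-0.094), acl-8 (-0.044), acl-9 (-0.036) and acl-11 (-0.15). Under quantile they turned for acs-5 (-0.0095), acl-4 (-0.13), acl-6 (-0.073), acl-7 (-0.070), acl-8 (-0.0071) and acl-11 (-0.32). The cause was not tested.

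Leaving out 1 library gave 0 to 1 gene higher and 0 to 4 lower at adjusted p, and 1444 to 3860 higher and 27 to 171 lower unadjusted. The acs count was 3 to 8 higher and 0 to 1 lower, the acl count 1 to 3 higher, and partners 2 to 7 higher and 0 to 1 lower. The acs median was 0.40 to 0.56 and the acl median 0.19 to 0.45. With libraries left out, acs-2 ran from -1.13 to 0.24, turning to 0.043 without control replicate 3 and to 0.24 when the first knockdown library was dropped. acs-4 ran from -0.00091 (the same library dropped) to 0.42, and acl-1 turned to 0.0025 without control replicate 1. With control replicate 2 and the third knockdown library both dropped, an alternative chosen after seeing the data as were all those for the partners, 1943 genes were higher and 57 lower unadjusted, with 3 acs, 1 acl and 2 partners higher and 0 partners lower. The acs median was then 0.29 and the acl median 0.22, and acs-2 stood at -1.13.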
